A study of Mus musculus with 17 samples.

Results

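The Rab GTPases are the largest branch of the Ras superfamily of small GTPases, and the mouse genes of the family other than Rab34 were followed here across 17 arrays of transduced bone marrow cells. Members were the probes whose platform annotation symbol was Rab, a number and at most 1 letter from a to d, without Rab34. The rule took 109 of 45281 probes and 58 of 19057 genes with a single symbol. Each gene was represented by its brightest probe, and 49 Rab genes passed the detection filter in dataset A and 42 in dataset B.

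Messenger RNA was measured on single-colour Illumina bead arrays. The marrow came from C57Bl/6 mice given 150 mg/kg of 5-fluorouracil, which kills cycling cells, 4 days earlier, and was grown for 7 days in medium with serum and 3 cytokines (Flt3 ligand, stem cell factor and interleukin-11). All groups, the controls included, share this treatment, infection with a retroviral MXW vector, and sorting of viable EGFP-positive cells 5 days after the first infection. Dataset A held 3 arrays with the vector for the microRNA cluster 99b/let-7e/125a (called the cluster below), 2 arrays with miR-155 and 3 arrays with the empty vector. Dataset B held 3 arrays with the cluster, 3 with miR-125a alone and 3 with the empty vector. The sorted cells are a mixture of marrow cell types, so a lower level in bulk RNA cannot be told apart from fewer cells that carry the transcript. Levels of the microRNAs themselves were not analysed here.

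Rab proteins switch between a GDP-bound form held in the cytosol and a GTP-bound form on membranes, where they recruit the effectors that move, tether and fuse vesicles. Exchange factors, many of them with a DENN domain, load GTP, and GTPase-activating proteins of the TBC family switch the Rab off. In myeloid cells, Rab proteins are known for granule exocytosis, phagosome maturation and the recycling of surface receptors.

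The vectors encode microRNAs with 4 different seeds, the bases 2 to 8 that pair with target messages. The mature sequences below are RefSeq's on build GRCm38.p6, with the seed in capitals, and are shown because the vectors are named for these microRNAs. The cluster members lie on the plus strand at chr17:17830194-17830215, chr17:17830366-17830387 and chr17:17830817-17830840, in the order listed, and miR-155-5p at chr16:84714143-84714165, also on the plus strand. Target sites in Rab messages were not searched for, since no 3' UTR sequence was used here.
mmu-miR-99b-5p: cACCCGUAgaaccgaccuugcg
mmu-let-7e-5p: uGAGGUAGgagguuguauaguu
mmu-miR-125a-5p: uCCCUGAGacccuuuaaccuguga
mmu-miR-155-5p: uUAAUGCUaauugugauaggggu

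Between 34.2% and 38.9% of all probes were detected per array, which means that the deposited detection p-value was under 0.05. All 6 blood cell markers checked (Ptprc, Spi1, Cd34, Kit, Mpo and Runx1) were detected in every group. The summed signal of 6 stroma markers was at most 171. Of these 6, 5 were detected on at least 1 array of dataset A and 4 on at least 1 of dataset B. In both datasets 0 of them were detected on every array, and Dcn was detected on no array. The summed signal of 9 neutrophil maturation markers lay between 28558 and 33675 with the cluster and between 32235 and 34110 with miR-155, against 38906 to 46153 with the empty vector of dataset A. All 9 were detected on at least 1 array of dataset A, and 6 on every array of it. Of the 5 eosinophil markers on the array, 4 were detected on at least 1 array of dataset A, and Siglecf on none. Their sum lay between 295 and 436 with the cluster, against 607 to 931 with the empty vector. That of the 7 monocyte and macrophage markers present on the array, of 9 listed, lay between 1013 and 1124 with miR-155, against 1548 to 1791 with the empty vector. The miR-155 arrays also lay below the empty vector in the sums of dendritic cell (451 to 458, against 667 to 756), mast cell and basophil (3830 to 4616, against 4726 to 5213) and neutrophil primary granule markers (62397 to 66690, against 69388 to 73013). They lay above it in erythroid markers (1955 to 2255, against 1354 to 1808). In dataset B, primitive progenitor markers summed to 2493 to 2752 with the cluster and 2416 to 2637 with miR-125a, against 2065 to 2328 with the empty vector. Mast cell and basophil markers summed to 4291, 4760 and 9292 with miR-125a, against 3598 to 4099 with the empty vector, and the highest value was that of miR-125a array 3 alone. Of the 10 markers in that list, 8 were detected on at least 1 array of dataset A and 9 on at least 1 of dataset B. In each dataset 6 of them were detected on every array. Tpsab1, a mast cell tryptase, was detected on no array. The other lists overlapped with the empty vector. The part of these shifts in the Rab values below was not tested.

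Most of the family was detectable in these cultures. Of the 58 genes, 32 were detected on all 17 arrays, and they included the housekeeping traffic regulators Rab1a, Rab1b, Rab2a, Rab5a, Rab5c, Rab7 and Rab11b as well as the granule regulators Rab27a, Rab3d and Rab44. On single arrays of dataset A, 57.8% to 66.1% of the Rab probes were detected, and on those of dataset B 51.4% to 63.3%. The 9 genes that passed the filter in neither dataset were Rab20, Rab27b, Rab2b, Rab30, Rab3b, Rab3c, Rab40b, Rab6b and Rab9b. Only Rab30, a Golgi Rab, was detected on 0 of 17 arrays. Another 7 genes passed in dataset A alone, namely Rab15, Rab19, Rab36, Rab39, Rab39b, Rab42 and Rab5b. The filter asked for at least 2 detecting arrays in dataset A and 3 in dataset B. Rab19 and Rab42 were each detected on 2 arrays of dataset B. Rab15, Rab36 and Rab39 were each detected on 2 arrays of dataset A and 0 of dataset B. Rab5b, an early endosome Rab with 1 probe, was detected on 8 of 8 arrays of dataset A and 0 of 9 of dataset B, whichever vector the cells carried. No level is set across the datasets, since they were normalized separately. For 8 genes (Rab15, Rab17, Rab19, Rab25, Rab36, Rab37, Rab39 and Rab42), at least 1 group of dataset A had no array that detected them, so their values there are bounds.

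**Figure D1:**
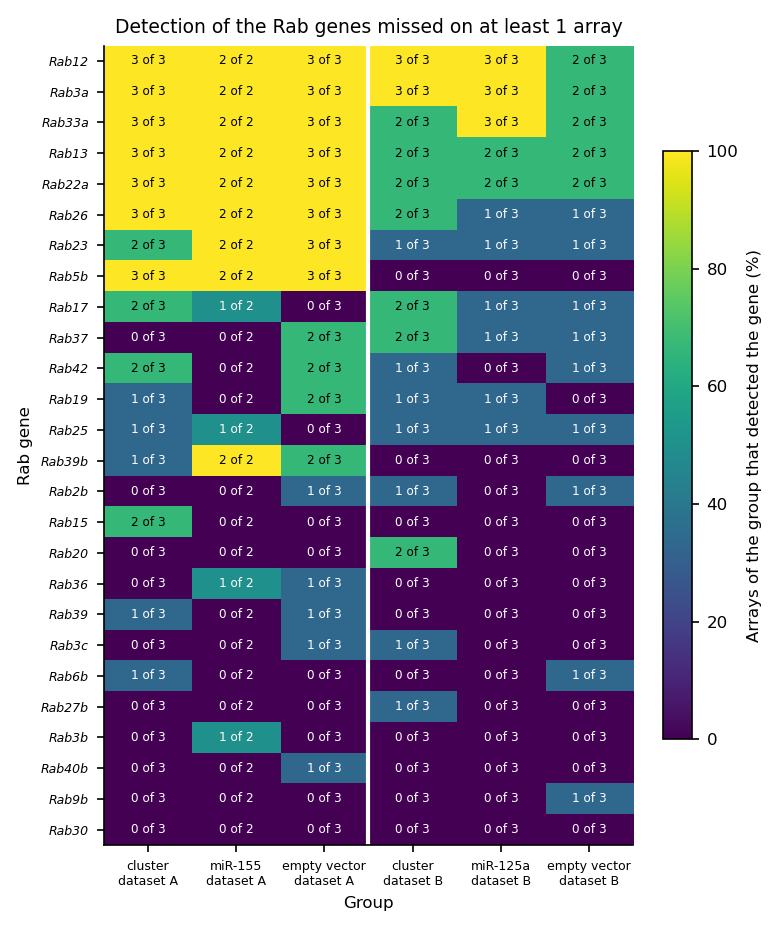
Rows are the 26 Rab genes missed on at least 1 array, columns are the 6 groups, and each cell gives the number of arrays of the group that detected the gene (detection p under 0.05), coloured by percentage. Rab5b was detected on 8 of 8 arrays of dataset A and 0 of 9 of dataset B, and Rab30 on none.

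No Rab gene passed the test in any comparison with the empty vector. The test was limma's moderated statistic over all genes tested, with Benjamini-Hochberg adjusted p under 0.05 as the call. For the cluster in dataset A, 0 of 49 Rab genes were called, where 0.653% of all 10266 genes were. For miR-155 the count was 0 of 49, where 1.05% of all genes were called. For the cluster in dataset B it was 0 of 42, where 0.0106% of 9395 genes were called, and for miR-125a 0 of 42, where 0% of all genes were. At an unadjusted p under 0.05, 4 of 49 Rab genes passed with the cluster in dataset A (7.81% of all genes), 3 of 49 with miR-155 (8.98%), 3 of 42 with the cluster in dataset B (9.75%) and 4 of 42 with miR-125a (10.6%). These shares lie near those of all genes. With median scaling in place of quantile normalization, which put the median of all genes at 0.48 for miR-125a, 8 Rab genes and 1766 of all genes were called with miR-125a.

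Among genes detected on at least 1 array of each group compared, most 95% intervals lay within 2-fold either way. With the cluster in dataset A this held for 44 of 44 such Rab genes, where it did for 97.7% of all such genes. With miR-155 it held for 41 of 42 (94.4% of all), the exception being Rab6a. For the cluster in dataset B it held for 41 of 42 (96.9%), the exception being Rab12, and for miR-125a for 42 of 42 (96.9%). Changes over 1.5-fold numbered 0, 1, 1 and 0 of these Rab genes in the same 4 comparisons, against 2.36%, 4.1%, 1.63% and 1.68% of all such genes.

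Over the members that passed the filter, the median change sat close to that of all genes tested in each comparison. In log2 units, it was 0.03 with the cluster in dataset A (0.00 over all genes), -0.03 with miR-155 (0.01), 0.02 with the cluster in dataset B (0.02) and 0.07 with miR-125a (0.03). The median size of the change, without its sign, was 0.09 with the cluster in dataset A against 0.13 over all genes, and 0.16 with miR-155 against 0.16. It was 0.07 with the cluster in dataset B against 0.13 over all genes, and 0.10 with miR-125a against 0.14. The spread between arrays of a group was also close to that of all genes, with a median residual SD of 0.19 in dataset A (0.21 over all genes) and 0.16 in dataset B (0.19). The 8 brightest Rab probes of the empty vector, which say nothing of the order of transcript amounts, belonged in dataset A to Rab11b, Rab32, Rab8b, Rab5c, Rab27a, Rab2a, Rab31 and Rab28, and their changes lay between -0.31 and 0.27. In dataset B, Rab7 and Rab8a stood in place of Rab8b and Rab31, and the changes lay between -0.16 and 0.30.

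**Figure D2:**
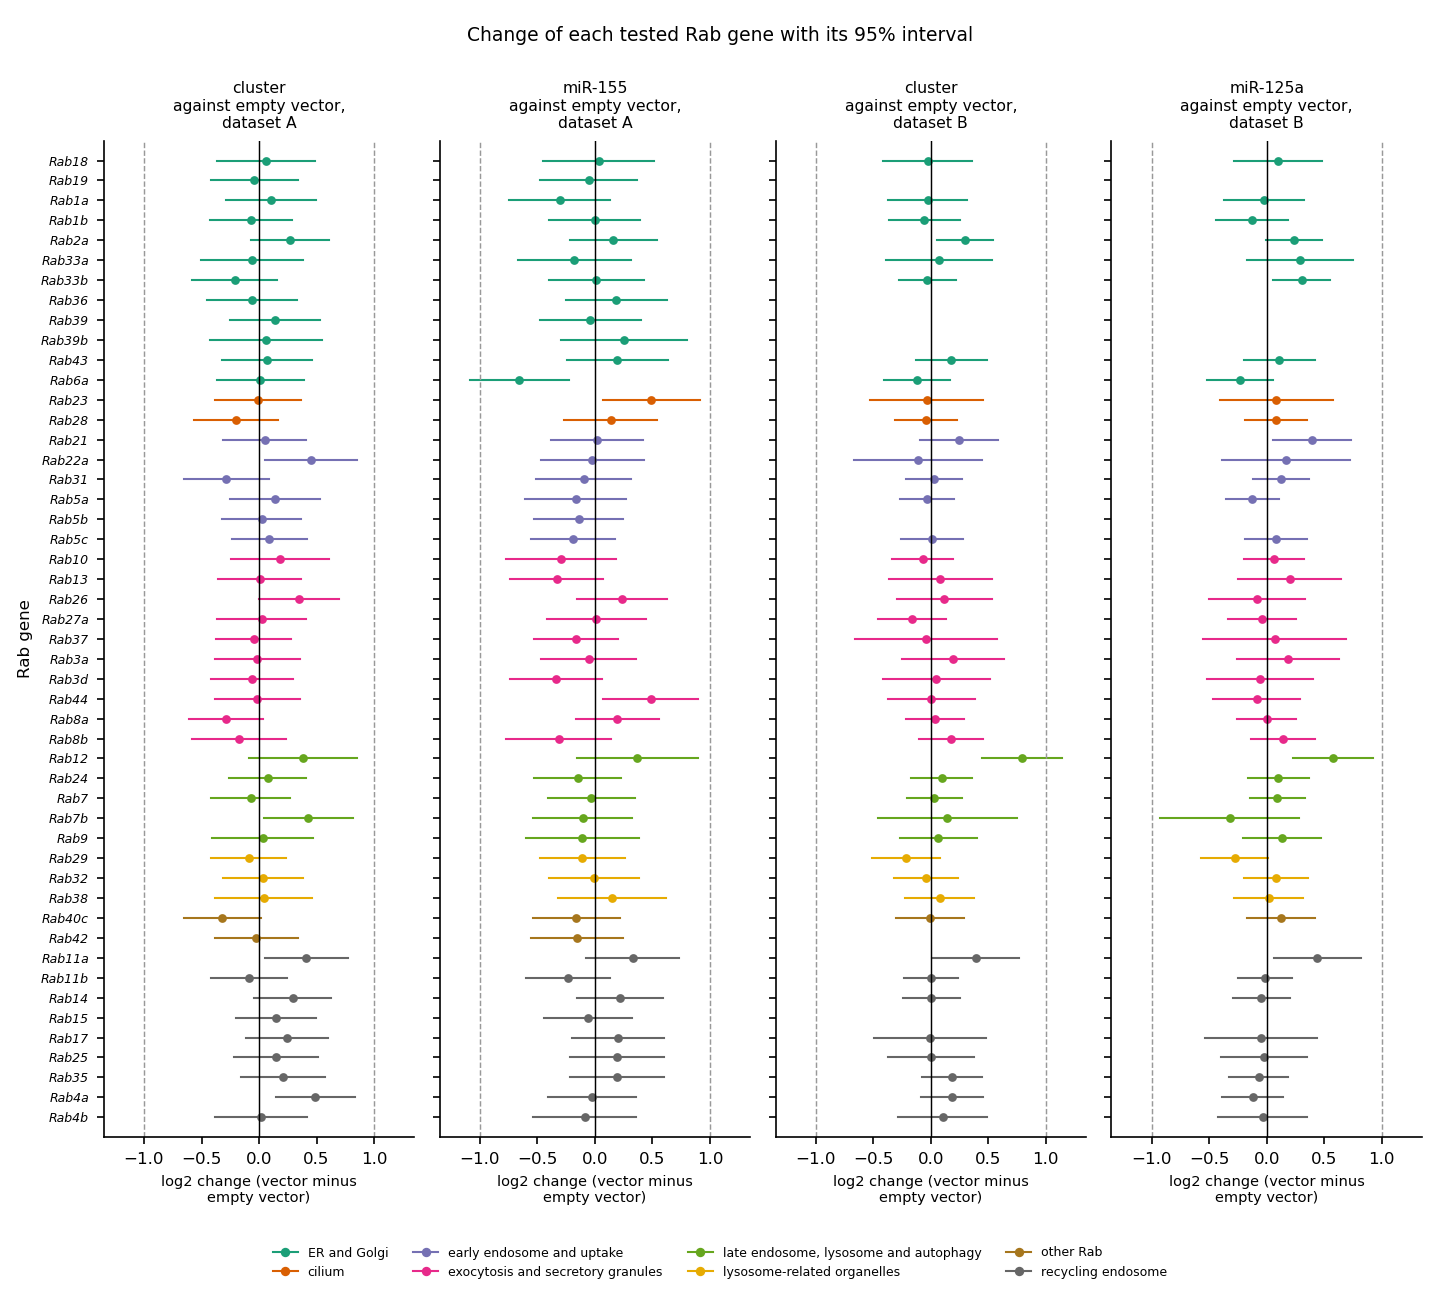
Each point is the log2 change of a Rab gene (vector minus empty vector) and each line its 95% interval from limma, in 4 comparisons, coloured by role; dashed lines mark 2-fold. The intervals of Rab6a with miR-155 and of Rab12 with the cluster in dataset B cross a dashed line, and those of 7 genes tested in dataset A alone are missing on the right.

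The late endosome and lysosome group held the largest change of any Rab gene. Rab12, which is known for directing transferrin receptor from recycling endosomes to lysosomes, had log2 levels of 5.60, 5.99 and 5.72 with the cluster in dataset B, against 5.04, 4.74 and 5.16 with the empty vector. With miR-125a alone its levels were 5.36, 5.56 and 5.73, against the same empty-vector arrays. All 6 arrays with a microRNA vector lay above the 3 empty-vector arrays, of which 2 detected the gene. The change was 0.79 ± 0.16 with the cluster (SE, 1.73-fold, n = 3 each, limma adjusted p = 0.152) and 0.57 ± 0.16 with miR-125a (1.49-fold, adjusted p = 0.247), so neither was called. Over the alternatives run, the adjusted p of the cluster value ranged from 0.0689 to 0.398, and the change was 0.25 without background correction and 0.23 with the deposited log2 values. In dataset A, Rab12 read 5.97, 6.66 and 5.79 with the cluster and 5.83 and 6.42 with miR-155, against 5.57, 5.86 and 5.85 with the empty vector. These groups overlapped, with changes of 0.38 ± 0.22 for the cluster (adjusted p = 0.774) and 0.37 ± 0.25 for miR-155 (0.747). Without cluster array 3 the value for the cluster was 0.12, and without miR-155 array 2 that for miR-155 was 0.07.

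Among the other late endosome and lysosome members, Rab7 (fusion with lysosomes) averaged 10.39 ± 0.08 with the cluster (SD, n = 3) and 10.43 ± 0.04 with miR-155 (n = 2), against 10.46 ± 0.18 with the empty vector of dataset A (n = 3). Its changes lay between -0.07 and 0.09 in the 4 comparisons. Rab7b, a relative that acts between endosomes and the Golgi, read 8.94, 8.63 and 9.01 with the cluster in dataset A, against 8.17, 8.72 and 8.40 with the empty vector, and the groups overlapped (change 0.43 ± 0.18, adjusted p = 0.539). With miR-125a, Rab7b read 8.35, 8.37 and 7.31, against 8.72, 7.97 and 8.30 with the empty vector. The change of -0.32 ± 0.27 rested on miR-125a array 3, and was 0.03 without it. The other tested Rab7b probe had changes of 0.14 with the cluster in dataset A and -0.06 with miR-125a. Rab9 (late endosome to Golgi) and Rab24 (autophagy) did not pass the test either, with changes between -0.15 and 0.13. Of the 5 group members tested, 4 had positive values with the cluster in dataset A (median 0.08), 1 with miR-155 (-0.11), 5 with the cluster in dataset B (0.09) and 4 with miR-125a (0.10), and 0 were called. Over all genes tested, 50.3%, 51%, 54.9% and 56.5% were positive in these comparisons.

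**Figure D3:**
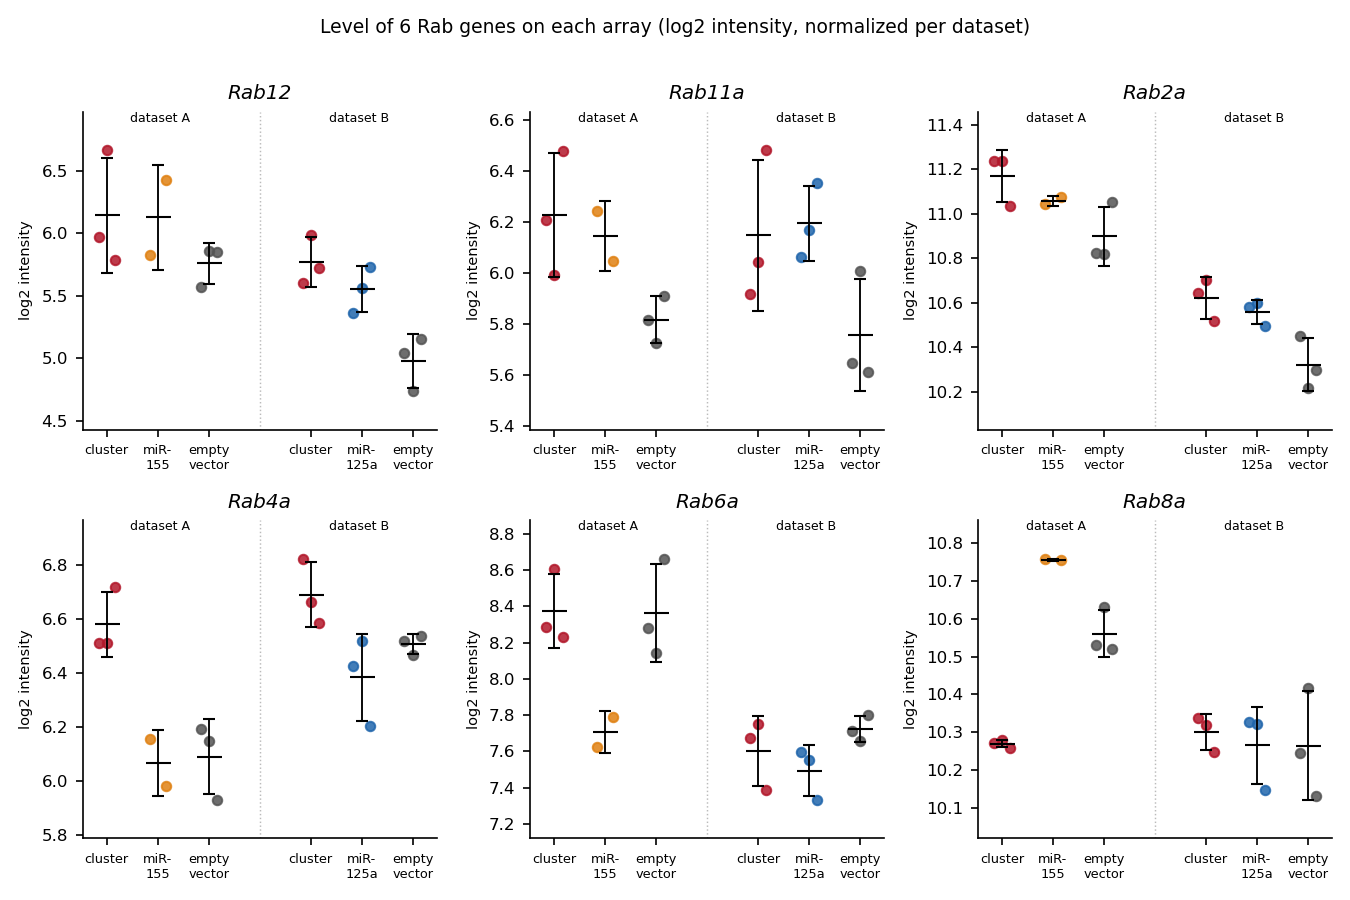
Points are single arrays, and horizontal and vertical bars are the mean and SD of each group (log2 intensity, normalized within each dataset, so that levels are not comparable between datasets). Rab12 sits between 5.36 and 5.99 on the 6 microRNA-vector arrays of dataset B, against 4.74 to 5.16 with the empty vector, and Rab8a reads 10.26 to 10.28 with the cluster and 10.75 and 10.76 with miR-155, against 10.52 to 10.63 with the empty vector of dataset A.

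The largest Rab change with the cluster in dataset A was that of Rab4a in the recycling endosome group. Rab4a, which drives fast recycling of receptors, read 6.51, 6.51 and 6.72 with the cluster in dataset A, against 6.19, 6.15 and 5.93 with the empty vector. The groups did not overlap, which was so for 4 Rab genes in the higher direction (Rab4a, Rab11a, Rab14 and Rab26) and 2 in the lower (Rab8a and Rab40c), against 6.36% and 6.62% of all genes. The Rab4a change was 0.49 ± 0.16 (1.40-fold, adjusted p = 0.316). In dataset B, Rab4a read 6.82, 6.66 and 6.58 with the cluster, against 6.52, 6.46 and 6.54 with the empty vector, again without overlap (0.18 ± 0.12, adjusted p = 0.683). With miR-155 and miR-125a its changes were -0.02 and -0.12.

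Rab11a, the main Rab of the slower recycling compartment, had a change of 0.41 ± 0.17 with the cluster in dataset A (adjusted p = 0.523) and 0.33 ± 0.19 with miR-155 (0.662). In dataset B its change was 0.39 ± 0.17 with the cluster (0.505) and 0.44 ± 0.17 with miR-125a (0.414). Its levels were 6.21, 5.99 and 6.48 with the cluster and 6.24 and 6.05 with miR-155, against 5.81, 5.72 and 5.91 with the empty vector of dataset A. Each of these 5 arrays was above each empty-vector array. In dataset B they were 5.92, 6.04 and 6.48 with the cluster and 6.06, 6.17 and 6.35 with miR-125a, against 5.65, 6.01 and 5.61 with the empty vector. The cluster overlapped with the empty vector there, and miR-125a did not. Comparisons within a dataset share their 3 empty-vector arrays, so these values are not independent of each other.

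The paralogue Rab11b had changes between -0.24 and 0.00. Rab14, which acts between endosomes and the Golgi, read 9.98, 10.02 and 10.17 with the cluster in dataset A, against 9.64, 9.84 and 9.82 with the empty vector (0.29 ± 0.16, adjusted p = 0.734), and its change was 0.01 with the cluster in dataset B. The other tested Rab14 probe had changes of 0.02 and 0.08 with the cluster in datasets A and B. Rab35 had changes of 0.21 and 0.18 with the cluster in datasets A and B, 0.19 with miR-155 and -0.07 with miR-125a. None of the recycling members was called. Rab15, Rab17 and Rab25 (an epithelial relative of Rab11) were detected on at most 2 arrays of any group and on no empty-vector array of dataset A. They passed the filter there through arrays of the microRNA vectors, so that no count of positive values is given for this group.

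In the ER and Golgi group, Rab6a gave the largest change with miR-155. Rab6a, which acts in transport from the Golgi back to the ER, read 7.62 and 7.79 with miR-155, against 8.28, 8.14 and 8.66 with the empty vector. The groups did not overlap. This was so for 6 Rab genes in the lower direction (Rab6a, Rab3d, Rab13, Rab11b, Rab5c and Rab37), against 12.4% of all genes, and 6 in the higher (Rab23, Rab44, Rab11a, Rab26, Rab14 and Rab8a), against 11.6%. Of these, Rab37 was detected on 0 of 2 miR-155 arrays. The change was -0.66 ± 0.20 (1.58-fold, adjusted p = 0.209), with an interval from -1.08 to -0.23. Leaving out each array in turn gave values from -0.77 to -0.51, and all alternatives from -1.11 (median scaling) to -0.38 (replicate block on the deposited log2 values), with adjusted p from 0.0653 to 0.581. The 3 other Rab6a probes that passed the filter had changes of -0.29, -0.08 and 0.14, so the probes disagreed.

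Rab2a, needed for transport between the ER and the Golgi, read 10.64, 10.70 and 10.52 with the cluster in dataset B and 10.58, 10.60 and 10.50 with miR-125a, against 10.45, 10.22 and 10.30 with the empty vector. Neither vector's arrays overlapped with the empty vector's. The changes were 0.30 ± 0.11 (adjusted p = 0.431) and 0.24 ± 0.11 (0.489). Groups did not overlap for 3 Rab genes higher and 1 lower with the cluster in dataset B (10.3% and 5.8% of all genes), and for 4 higher and 1 lower with miR-125a (10.1% and 5.34%). In dataset A, Rab2a read 11.24, 11.23 and 11.03 with the cluster and 11.04 and 11.07 with miR-155, against 10.82, 10.82 and 11.05 with the empty vector, and both vectors overlapped with it (changes of 0.27 and 0.16). Rab33b, a Golgi Rab that binds the autophagy protein Atg16l1, had a change of 0.30 ± 0.11 with miR-125a (adjusted p = 0.396) and of -0.03 with the cluster in dataset B. For Rab1a and Rab1b, the ER to Golgi Rabs, the changes lay between -0.31 and 0.11, all uncalled. Rab33a, also uncalled, had changes of 0.29 with miR-125a and 0.07 with the cluster in dataset B. In dataset A they were -0.06 with the cluster and -0.18 with miR-155.

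No early endosome member was called. Rab22a, which acts in early endosomes and recycling, read 6.90, 6.61 and 6.23 with the cluster in dataset A, against 6.00, 6.04 and 6.34 with the empty vector, with overlap (0.45 ± 0.19, adjusted p = 0.523). In dataset B its change was -0.11 with the cluster and 0.17 with miR-125a, with detection on 2 of 3 arrays in each group. The other tested Rab22a probe had a change of 0.16 with the cluster in dataset A. In dataset B that probe had changes of 0.22 with the cluster and -0.07 with miR-125a. Rab21, known for integrin uptake, read 7.13, 6.84 and 7.26 with miR-125a, against 6.61, 6.50 and 6.94 with the empty vector, and the groups overlapped (0.40 ± 0.15, adjusted p = 0.412). Rab31 read 10.65, 10.70 and 10.30 with the cluster in dataset A, against 10.59, 11.03 and 10.88 with the empty vector, with overlap (-0.28 ± 0.17, limma adjusted p = 0.789). Its changes were -0.10 with miR-155, 0.03 with the cluster in dataset B and 0.12 with miR-125a. The early endosome Rabs Rab5a and Rab5c had changes between -0.19 and 0.14 in the 4 comparisons. Of the group's tested members, 5 of 6 were positive with the cluster in dataset A (median 0.07), 1 of 6 with miR-155 (-0.12), 3 of 5 with the cluster in dataset B (0.01) and 4 of 5 with miR-125a (0.12). The shares over all genes tested were 50.3%, 51%, 54.9% and 56.5%.

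Rabs of exocytosis and secretory granules, the group closest to neutrophil and mast cell granule release, showed no called change. Rab27a, which docks granules at the plasma membrane, had changes between -0.16 and 0.02. Rab3d, a granule Rab, read 9.66 and 9.61 with miR-155, against 9.95, 9.77 and 10.21 with the empty vector, without overlap (-0.34 ± 0.19, adjusted p = 0.648). Rab44, a large Rab with calcium-binding EF hands, read 10.37 and 10.70 with miR-155, against 9.80, 10.10 and 10.24 with the empty vector, also without overlap (0.48 ± 0.20, adjusted p = 0.433). Its other tested probe had a change of -0.12. Rab26, known from secretory granules, read 5.31, 5.14 and 5.46 with the cluster and 5.12 and 5.26 with miR-155, against 4.77, 5.03 and 5.07 with the empty vector, without overlap (0.35 ± 0.17 and 0.23, adjusted p = 0.647 for the cluster). Rab8a, which acts in exocytosis, read 10.27, 10.28 and 10.26 with the cluster and 10.76 and 10.75 with miR-155, against 10.53, 10.63 and 10.52 with the empty vector. The changes were -0.29 ± 0.15 (adjusted p = 0.705) and 0.20 ± 0.17 (0.825), and neither vector overlapped with the empty vector. Its other probe had changes of -0.21 and -0.37. With miR-155, Rab13, Rab8b and Rab10 had changes of -0.33, -0.31 and -0.30, all uncalled. Like Rab3d they were lower, while Rab44, Rab26, Rab8a and Rab27a had positive values. In dataset B, Rab3a had changes of 0.19 with the cluster and 0.18 with miR-125a. In dataset A its changes were -0.01 with the cluster and -0.05 with miR-155. Of the 10 tested members, 7 were positive with the cluster in dataset B (median 0.04) and 6 with miR-125a (0.03), against 54.9% and 56.5% of all genes tested. No such count is given for dataset A, where Rab37 passed the filter through 2 empty-vector arrays alone.

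Of the Rabs of lysosome-related organelles, Rab29, a partner of the kinase LRRK2, read 7.48, 7.43 and 7.48 with the cluster in dataset B, against 7.54, 7.73 and 7.76 with the empty vector, without overlap (-0.21 ± 0.13, adjusted p = 0.667). Its changes in the other 3 comparisons were -0.09, -0.11 and -0.28. Rab32 and Rab38, known for melanosome biogenesis, had changes between -0.04 and 0.15. Rab23, known as a brake on Hedgehog signalling in cilia, read 4.99 and 5.40 with miR-155, against 4.54, 4.85 and 4.73 with the empty vector (0.49 ± 0.20, adjusted p = 0.431). Rab40c, which has a SOCS box, read 8.10, 7.96 and 8.12 with the cluster in dataset A, against 8.23, 8.40 and 8.52 with the empty vector, without overlap (-0.32 ± 0.16, adjusted p = 0.659), and its change was -0.01 with the cluster in dataset B.

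The cluster was tested in both datasets with separate empty-vector arrays, which allowed its changes to be set side by side. Of the 42 Rab genes tested in both, 24 (57.1%) had the same sign, 17 of them positive and 7 negative, against 53.7% of 8959 genes. The 42 include Rab17 and Rab25, which passed the filter in dataset A through arrays of the microRNA vectors alone. They also include Rab37, which passed there through empty-vector arrays alone. Rab25 is among the 17 positive genes and Rab37 among the 7 negative, so the count and the correlations below are descriptions only. Across the 42 genes, Pearson's r between the datasets was 0.40 and Spearman's rho 0.31, against 0.27 and 0.16 over all genes. Genes are not independent replicates, and each value rests on 3 arrays a group of 1 dataset. Rab12 had changes of 0.38 and 0.79 in datasets A and B, Rab11a of 0.41 and 0.39, Rab4a of 0.49 and 0.18, and Rab2a of 0.27 and 0.30. The difference of the cluster effect between the datasets was tested as an interaction on 12 arrays normalized together, and called 0 of 42 Rab genes and 0% of 8959 genes. At an unadjusted p under 0.05 it passed 0 of 42 Rab genes and 494 of all genes (5.51%). The Rab gene with the lowest unadjusted p was Rab8a (dataset A minus dataset B -0.34 ± 0.18), with the same limma adjusted p of 0.869 as Rab22a (0.53 ± 0.31) and Rab12 (-0.45 ± 0.28).

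**Figure D4:**
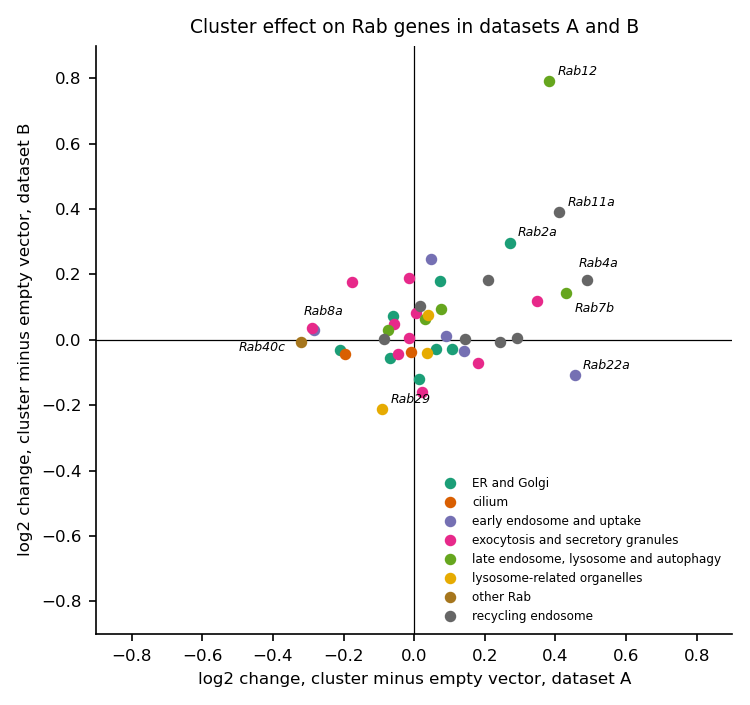
Each of 42 points is a Rab gene, with its log2 change with the cluster (cluster minus empty vector) in dataset A on the horizontal and in dataset B on the vertical axis, coloured by role. Rab12, Rab11a and Rab2a are positive on both axes, and most other genes lie close to 0.

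Setting the vectors against each other called no Rab gene. For the cluster against miR-155 in dataset A, 0 of 49 Rab genes were called, where 0.867% of all genes were, and 7 of 49 had an unadjusted p under 0.05 (10.3% of all genes). Rab6a had a change of 0.67 ± 0.20 (cluster minus miR-155, adjusted p = 0.172), Rab8a of -0.49 ± 0.17 (0.276), Rab4a of 0.51 ± 0.18 (0.277) and Rab7b of 0.54 ± 0.20 (0.333). Rab8a was called in 2 of the alternatives, without background correction (-0.46, adjusted p = 0.0432) and with the deposited log2 values (-0.45, adjusted p = 0.0398), while its other probe had a value of 0.17. Groups did not overlap for 11 Rab genes higher with the cluster and 6 lower (13% and 12.1% of all genes). For the cluster against its member miR-125a in dataset B, 0 of 42 Rab genes and 0% of all genes were called, and 2 of 42 had an unadjusted p under 0.05 (4.56% of all genes). These were Rab33b (-0.34 ± 0.11) and Rab4a (0.31 ± 0.12), both with an adjusted p of 1.00. Groups did not overlap for 4 Rab genes higher with the cluster and 1 lower (4.35% and 5.12% of all genes).

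Where a gene had several probes, they often disagreed in sign. Probes per gene ranged from 1 (26 genes) to 4 (3 genes). When every probe was tested, 0 of 75 Rab probes were called in dataset A and 0 of 67 in dataset B. Of the other probes of multi-probe genes, 17 of 26 had the sign of the brightest probe with the cluster in dataset A and 17 of 26 with miR-155. In dataset B these were 10 of 25 with the cluster and 9 of 25 with miR-125a. Rab12 had a second probe, which was detected on 0 of 17 arrays, and Rab11a, Rab2a, Rab4a, Rab21 and Rab29 had 1 probe each, so these genes had no check by another probe.

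Genes that regulate or read Rab proteins were described from lists of 45 exchange factors, 37 GTPase-activating proteins, 15 GDI and prenylation genes and 66 effectors. With the cluster in dataset A, 1 of 39 tested exchange factors was called higher, where 0.653% of all genes were called in either direction, and 0 of 32 activating proteins, 0 of 10 GDI and prenylation genes and 0 of 47 effectors were called. The called gene was Dennd2a, whose human counterpart is an exchange factor for Rab9. It read 5.87, 6.40 and 6.02 with the cluster and 4.42 and 4.43 with miR-155, against 5.41, 5.14 and 5.36 with the empty vector. The cluster arrays lay above and the miR-155 arrays below every empty-vector array. The change with the cluster was 0.79 ± 0.17 (1.73-fold, adjusted p = 0.0489), and 0 of 10 other settings kept the call, with adjusted p up to 0.647. Leaving out cluster array 3, the cluster array without a number or any of the 3 empty-vector arrays also ended it (adjusted p of 0.103 to 0.228). In dataset B its change was 0.29 ± 0.19 with the cluster (adjusted p = 0.694).

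With miR-155, 2 of 39 exchange factors were called, both lower, where 1.05% of all genes were called in either direction, and the other lists had 0 calls. Dennd2a was detected on 0 of 2 miR-155 arrays and 3 of 3 empty-vector arrays, so it was at least 1.61-fold lower (adjusted p = 0.0403), a call that 2 of 10 other settings kept and that was lost without any 1 of the arrays compared. Its log2 change was -0.87 and was as small as -0.22 under the alternatives, which lies inside the bound. Dennd6a, whose human counterpart is an exchange factor for Rab14, read 7.17 and 6.82 with miR-155, against 7.92, 8.16 and 7.98 with the empty vector, without overlap (-1.02 ± 0.19, 2.03-fold, adjusted p = 0.0126). That call was kept in 8 of 10 other settings, and was lost without miR-155 array 2 (adjusted p = 0.307) or empty-vector array 2 (0.0557). With miR-125a, Dennd6a read 6.62, 6.35 and 6.55, against 7.42, 7.07 and 7.29 with the empty vector (-0.75 ± 0.13, adjusted p = 0.110, or 0.0473 with a trended and robust prior). With the cluster its changes were also negative and uncalled. They were -0.43 ± 0.17 in dataset A (limma adjusted p = 0.471) and -0.37 ± 0.13 in dataset B (0.417). Between the vectors, Dennd2a was at least 2.78-fold higher with the cluster than with miR-155 (adjusted p = 0.000239), a call kept in 4 of 4 other settings. The log2 difference was 1.67, but 0.62 without background correction and 0.57 with the deposited log2 values, so the bound does not hold there. In dataset B, 0 genes of these lists were called with the cluster or miR-125a.

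Promoter sequence was described because the members differ in whether they are detected at all in these cells. RefSeq windows of 300 bases, from 250 before to 50 after the start of transcription, were given for 47 of the 58 genes, 7 of them with several starts, of which the first listed was used. The median number of CpG dinucleotides per window was 24.5 in 26 Rab genes detected on all 17 arrays, 16.5 in 14 detected on some arrays and tested, and 17 in 7 tested in neither dataset. Over all genes on the arrays the median was 15, over genes detected on all 17 arrays 21, and over genes on the arrays tested in neither dataset 6. The GC box GGGCGG, searched on both strands, was found in 72.3% of Rab windows, against 49.9% of those of genes on the arrays and 66.9% of those of genes detected on all 17 arrays. By detection, it was in 73.1% of windows of Rab genes detected on all 17 arrays and 57.1% of those detected on some and tested. It was in 7 of 7 windows of those tested in neither dataset, against 32.3% of windows of all genes on the arrays tested in neither. The E-box CACGTG was in 10.6% of Rab windows, against 8.39% for genes on the arrays and 11.2% for genes detected on all 17 arrays. The letters TATAAA were in 8.51%, against 12.5% and 7.06%. A match is a string of letters and not a shown binding site, and no test was made.

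**Figure D5:**
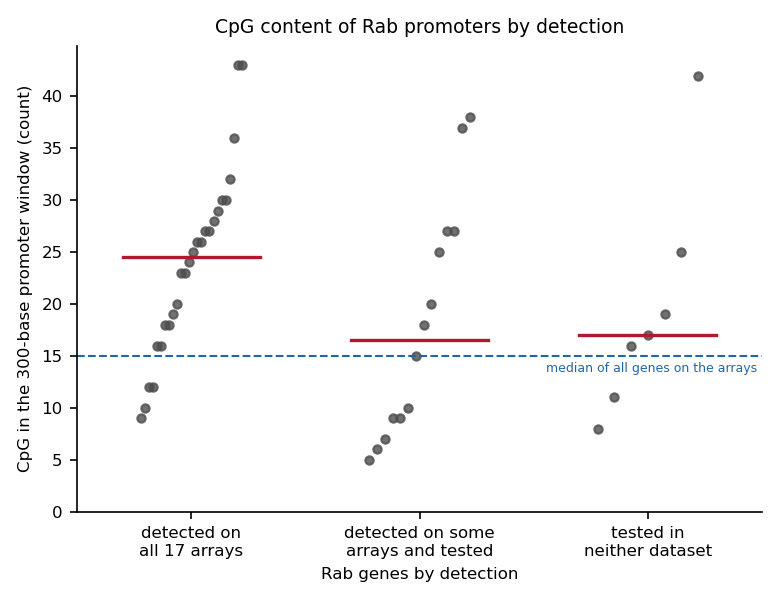
Points are the CpG counts of single Rab promoter windows of 300 bases, by detection of the gene, red lines are the group medians (24.5, 16.5 and 17), and the dashed line is the median of 15 over all genes on the arrays. The groups overlap widely.

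The windows of Rab12, the gene with the largest change, and of Rab25, which was detected on at most 1 array of any group, are shown as a CpG-rich and a CpG-poor case with CG in capitals. Both genes belong to the class detected on some arrays and tested, so the pair does not contrast the detection classes. Both are on the minus strand of GRCm38.p6 and read 5' to 3', Rab12 at chr17:66519621-66519920 with 37 CpG and Rab25 at chr3:88548230-88548529 with 9.
Rab12: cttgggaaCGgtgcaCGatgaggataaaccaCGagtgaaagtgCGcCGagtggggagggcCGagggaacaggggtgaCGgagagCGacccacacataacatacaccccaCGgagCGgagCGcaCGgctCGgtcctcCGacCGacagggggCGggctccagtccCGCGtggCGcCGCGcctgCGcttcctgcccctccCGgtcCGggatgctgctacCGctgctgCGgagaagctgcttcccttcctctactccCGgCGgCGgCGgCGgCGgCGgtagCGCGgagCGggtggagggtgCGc
Rab25: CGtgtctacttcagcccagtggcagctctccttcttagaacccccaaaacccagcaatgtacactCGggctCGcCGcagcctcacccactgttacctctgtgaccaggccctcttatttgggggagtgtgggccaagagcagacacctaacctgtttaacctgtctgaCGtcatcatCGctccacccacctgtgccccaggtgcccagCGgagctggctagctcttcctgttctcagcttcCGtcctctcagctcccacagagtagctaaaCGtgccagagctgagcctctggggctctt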

How the data were processed

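The deposited values are bead-array intensity per probe with a detection p-value, handled in GenomeStudio (named without a version by the submitters' processing notes), and, per the file headers, the authors' log2 values of the series matrix (median 6.47 in dataset A and 6.80 in dataset B), used as an alternative. In R 4.3.3 with limma 3.58.1, intensities were background-corrected by normexp with control parameters inferred from the detection p-values (offset 16), quantile normalized within each dataset and put on the log2 scale. Of the probes, 34885 had 1 symbol, 18 several and 10378 none. The brightest probe per gene was kept if its detection p was under 0.05 on at least 2 arrays (dataset A) or 3 (dataset B). Each dataset was fitted with all its groups, and p-values were Benjamini-Hochberg adjusted over all genes. The fit was tested on simulated data.

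Beyond a design note of biological triplicates, nothing says that arrays of a group came from separate animals or cultures. For miR-155, 2 arrays were analysed here. The p-values therefore measure the spread between these arrays, whose number limits the precision. A repeated column header left 1 cluster array without a number, and 0 of 136 array pairs were identical. Same-numbered cluster and empty-vector arrays of dataset B deviated together (correlations of 0.120, 0.186 and 0.181), so their numbers were taken as pairs in an alternative fit. The main fits had no block. In dataset A, on the deposited log2 values, the correlations with the empty vector were -0.190, -0.025 and 0.362 for the cluster. For miR-155 they were 0.324 and 0.060. A replicate block was run there as an alternative too. In the blocked fits, 0 Rab genes were called.

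The members, roles and machinery lists were chosen with earlier results of these data known. Named by rule were the 6 largest positive and 6 largest negative changes per comparison and the 8 brightest members per dataset. So were genes whose several probes were compared, untested genes and up to 3 machinery genes per comparison. Rab5b, Rab9, Rab14, Rab24, Rab25, Rab37 and Rab38 were named after their values were seen. Promoter and microRNA sequences are RefSeq's (GRCm38.p6). Alternatives changed the background correction, scaling, filter, probe choice, prior, groups fitted and arrays left out.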

Additional observations from a re-analysis of the deposited data

How the results depend on the processing

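The count of 0 called Rab genes held in 23 of 23 settings that left out an array and in 48 of 51 others. The exceptions were 8 genes for miR-125a against the empty vector with median scaling, and 1 gene (Rab8a) for the cluster against miR-155 without background correction and 1 with the deposited log2 values. Median scaling shifted the median Rab change to -0.050 (cluster, dataset A), -0.40 (miR-155), 0.35 (cluster, dataset B) and 0.51 (miR-125a), where the median of all genes was -0.08, -0.31, 0.32 and 0.48, so these directions are relative to the scaling. For miR-125a the median was 0.014 with no filter and 0.016 with every probe. With an array left out, the medians ranged from -0.078 to -0.011 for miR-155, from 0.021 to 0.076 for miR-125a, from -0.003 to 0.06 for the cluster in dataset A and from -0.01 to 0.06 in dataset B.

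Of the named Rab values, 681 kept their sign and side of the threshold in the alternatives that left out no array, 24 turned their sign and 5 passed the threshold. With an array left out, 384 kept them and 35 turned their sign. Median scaling turned the sign of Rab32 (-0.039), Rab5c (-0.00015) and Rab27a (-0.068) for the cluster in dataset A. With miR-155 they were Rab12 (-0.011), Rab11a (-0.0096), Rab27a (-0.42), Rab2a (-0.28) and Rab28 (-0.27). For the cluster in dataset B they were Rab29 (0.15), Rab27a (0.19), Rab6a (0.24), Rab10 (0.29), Rab1b (0.30), Rab32 (0.30) and Rab28 (0.30). With miR-125a they were Rab7b (0.24), Rab29 (0.28), Rab6a (0.32), Rab1b (0.44), Rab5a (0.44), Rab4a (0.33), Rab11b (0.51) and Rab27a (0.51). The replicate block, on the deposited log2 values, gave 0.063 for Rab32 with miR-155. In dataset B the replicate block left Rab12 at 0.79 with the cluster (limma adjusted p = 0.285) and changed no other call. The cause was not tested.

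Leaving out single arrays turned the sign of values near 0. For the cluster in dataset A, Rab32 ranged from -0.030 to 0.14 and Rab27a from -0.11 to 0.18. With miR-155, Rab32 ranged from -0.11 to 0.10, Rab27a from -0.12 to 0.15 and Rab31 from -0.22 to 0.00031. For the cluster in dataset B the ranges were -0.28 to 0.13 (Rab22a), -0.14 to 0.0033 (Rab1b), -0.048 to 0.10 (Rab5c), -0.047 to 0.060 (Rab11b), -0.14 to 0.016 (Rab32), -0.0016 to 0.070 (Rab7), -0.13 to 0.044 (Rab28) and -0.030 to 0.11 (Rab8a). With miR-125a they were -0.50 to 0.029 (Rab7b), -0.068 to 0.039 (Rab11b), -0.10 to 0.072 (Rab27a), -0.065 to 0.077 (Rab8a) and -0.061 to 0.33 (Dennd2a). The change of Rab12 with the cluster in dataset B was 0.25 without background correction, against 0.79 with it. Whether dim members in general depend on this correction was not tested.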
